A study of Mus musculus with 14 samples.

Results

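Interferon-stimulated genes were examined in the binding maps of 13 transcription factors in Hoxb8-FL cells. These are mouse blood progenitors with the capacity for several lineages, kept in culture by a conditional Hoxb8 protein. All 38 genes of the list were found by symbol in the RefSeq table of GRCm38.p6 genes, among 21627 protein-coding genes. Of the 38, 36 are annotated as protein-coding, and Mx1 and Mx2 are annotated as transcribed pseudogenes. A factor was counted at a gene when a peak of its list overlapped the gene body or the 50 kb on either side, which together are called the locus. Members whose loci overlapped were also joined, which gave 30 loci: 23 with a single gene and 7 with the neighbours Ifit1, Ifit2 and Ifit3, Oas2 and Oas3, Oasl1 and Oasl2, Mx1 and Mx2, Gbp2 and Gbp3, Ifitm1 and Ifitm3, and Parp9 and Parp14. Oas1a lay apart from Oas2 and Oas3, with 18.6 kb between the loci.

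The series holds 1 ChIP-seq library for each of the ETS factors Spi1, Fli1 and Erg, the C/EBP factors Cebpa and Cebpb, Runx1, Meis1, Gata2, Gfi1 and Gfi1b, and Tal1 with Lyl1 and Lmo2. A rabbit IgG library was also made, and its peaks were not analysed here. All libraries came from the same line, labelled LMPP-like (resembling lymphoid-primed multipotent progenitors), with no treatment and no interferon named in the labels and estradiol and FLT3 in the culture medium. The lists hold between 3217 peaks (Gata2) and 76378 peaks (Spi1), all 400 bp wide, as positions with no counts or scores, so depth is unknown and list length was not read as an amount of binding. With 1 library per factor no difference has a replicate check and no test was made, and the identity of the cells could not be checked against marker genes, since no expression was measured.

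Interferon-stimulated genes are switched on when type I interferon binds its receptor, the kinases Jak1 and Tyk2 become active, and phosphorylated Stat2 enters the complex ISGF3 with Irf9. The complex binds the interferon-stimulated response element (ISRE) in their promoters, a repeat of GAAA that other interferon regulatory factors also bind. Interferon gamma acts on a different element, the gamma-activated site (GAS). Stem and progenitor cells are known to express part of this programme without infection. Spi1 (PU.1) can bind together with Irf4 or Irf8 to a composite element of an ETS and an IRF site.

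Each member had a peak of at least 1 factor in its locus, and the median member had 10 of the 13 factors, with a range from 1 to 12. Peaks were present for 347 of the 494 combinations of member and factor (70.2%), against 57.6% for all protein-coding genes. Weighting all genes to the members' mix of locus lengths gave 58.8%. Empty loci were absent among the members: 12.0% of all protein-coding genes had no peak of any factor, against 0 of 38 members. Over the 30 joined loci a count of 0 allows a share of up to 10%. Over the 19034 protein-coding genes with a peak of any factor, 65.5% of combinations were present and the median was 9 factors. Of the members, 22 (57.9%) had 10 or more factors, against 42.6% of all genes. No member had all 13, which 6.02% of all genes did. No joined locus had all 13 either, and the same limit of 10% lies above that share. This absence thus cannot be told apart from the background. With neighbours joined the median of the 30 loci was 11 factors.

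**Figure D1:**
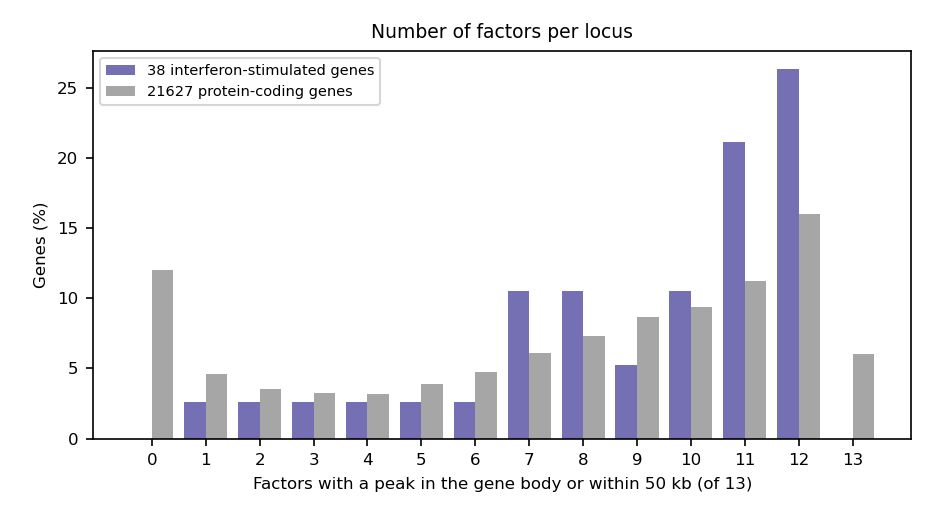
Number of factors with a peak in the locus (x axis, of 13), as a percentage of the 38 interferon-stimulated genes (purple bars) and of the 21627 protein-coding genes (grey bars). The members lie mostly at 7 to 12 factors, with none at 0 or 13, where 12.0% and 6.02% of all genes lie. The absence at 13 cannot be told apart from the background.

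Over all combinations the gap to all genes was narrower near the gene. With 10 kb on either side of the gene 44.5% of combinations were present, against 38.5% of all genes. At that distance the gap was not narrower for Spi1, Cebpa and Cebpb. They were at 89.5%, 76.3% and 81.6% of members, against 74.1%, 55.4% and 57.7% of all genes. In all, 9 of the 13 factors lay above all genes with 10 kb, and Erg, Gata2, Meis1 and Runx1 lay below. When each peak was given only to its nearest gene, 36.8% of combinations were present at the members and 34.5% at all genes. The count at 50 kb thus includes peaks that lie nearer to another gene.

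The factors found at nearly all members were Spi1, Cebpa, Cebpb, Lmo2 and Fli1. The background of each factor includes the 12.0% of all genes with no peak of any factor, and no member is such a gene. Spi1, an ETS factor of myeloid and lymphoid cells, had a peak at 37 of 38 members (97.4%), against 84.8% of all genes. Ifi44 was the member without it. Cebpa and Cebpb, C/EBP factors of granulocytes and monocytes, had a peak at 36 members each (94.7%), against 74.4% and 75.6%. The bridging protein Lmo2 was present at 35 (92.1%, background 69.1%) and the ETS factor Fli1 at 34 (89.5%, background 69.7%). Of the 19034 protein-coding genes with a peak of any factor, 18336 had Spi1, 16094 Cebpa, 16344 Cebpb, 14934 Lmo2 and 15084 Fli1. Against these genes each gap was narrower, and for Spi1 little of it was left.

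The other factors were found at fewer members. Meis1, a homeobox factor of stem cells, had a peak at 27 (71.1%, background 50.7%) and Tal1, a basic helix-loop-helix factor, also at 27 (71.1%, background 56.8%). Erg, an ETS factor, was present at 24 (63.2%, background 51.7%). The zinc finger repressors Gfi1 and Gfi1b were present at 23 (60.5%, background 49.2%) and 22 (57.9%, background 46.6%). Lyl1, a relative of Tal1, was present at 17 (44.7%, background 40.6%). Of the 19034 genes with a peak of any factor, 10971 had Meis1, 12293 Tal1, 11184 Erg, 10637 Gfi1, 10079 Gfi1b and 8781 Lyl1. Against these genes the gaps were narrower, and the member share of Lyl1 did not lie above theirs.

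Runx1 and Gata2 did not lie above the background of all genes. Runx1, a Runt domain factor, had a peak at 21 members (55.3%), against 56.9% of all genes, and the zinc finger factor Gata2 at 8 (21.1%), against 23.2%. Of the 19034 genes with a peak of any factor, 12300 had Runx1 and 5025 Gata2. With neighbours joined, 20 of the 30 loci had a Runx1 peak (66.7%, exact 95% interval 47.2 to 82.7). Joined loci are longer than single ones, so their shares are not like for like with the background. With 100 kb on either side, or when each list was cut to its first 50% of lines, Gata2 alone lay below the background. With 10 kb on either side Erg (21.1%, background 30.9%) and Meis1 (26.3%, background 27.0%) lay below it as well. With peaks given only to the nearest gene Runx1 lay above it (31.6%, background 30.7%), and Erg, Fli1, Gata2 and Gfi1b below, with Fli1 at 39.5% against 44.2%.

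**Figure D2:**
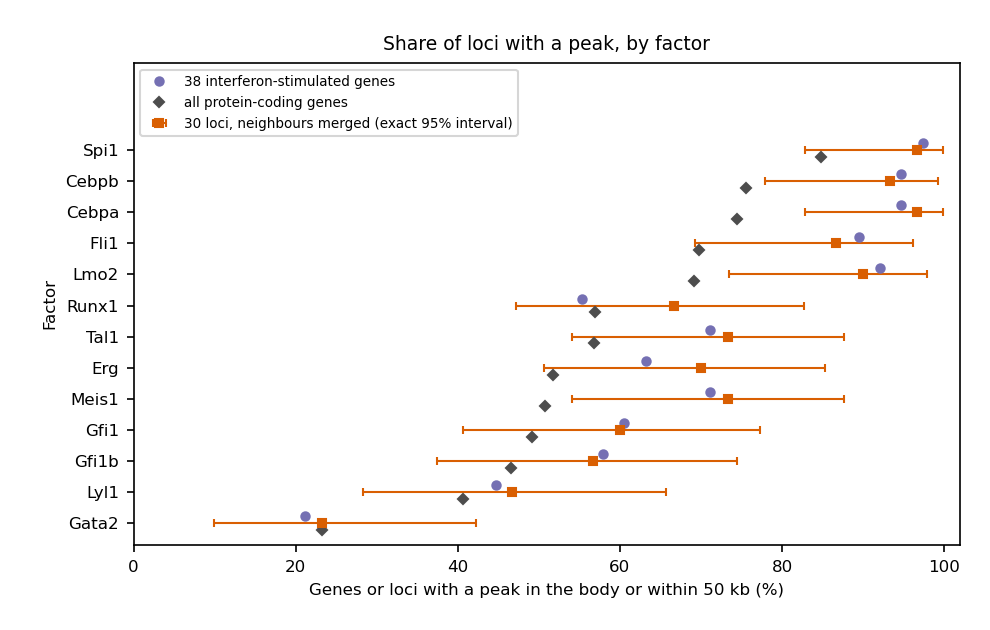
Share of genes or loci with a peak (x axis, percent) for each factor (y axis): 38 interferon-stimulated genes (circles), the 30 loci with neighbours joined (squares, with exact 95% binomial intervals that cover counting error only) and all 21627 protein-coding genes (diamonds). Spi1, Cebpa, Cebpb, Lmo2 and Fli1 are at 34 to 37 of the 38 genes, while the Runx1 and Gata2 circles lie below the diamonds. The diamonds include genes with no peak of any factor.

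The promoters were examined for the 29 members (36 start sites) with an entry in the RefSeq promoter table of GRCm38.p6. A promoter window ran from 250 bases before to 50 bases after an annotated start, and a gene with several starts was counted by any of them. The ISRE letters (GAAA, any 2 bases, then GAAA), searched on both strands, were found in a window of 16 of the 29 members (55.2%), against 3.98% of the 17273 genes with a window. A stricter form (GAAAC, any base, then GAAA) was in 9 (31.0%), against 0.816%. Since the ISRE is the element bound by ISGF3, the matching letters are shown for each of the 16, as 30 bases of the mm10 genome (GRCm38.p6) written 5′ to 3′ on the strand that reads GAAA. Capitals mark the matches that lie whole in the stretch.
Bst2, chr8:71537578-71537607, minus strand: tccagGAAAATGAAACTGAAAggctgcagt
Cxcl10, chr5:92349078-92349107, minus strand: ctttgGAAAGTGAAActtacctcactcgtt
Ddx58, chr4:40239809-40239838, plus strand: catagGAAATCGAAActgcctcagggcgct
Eif2ak2, chr17:78882530-78882559, minus strand: gccggGAAAACGAAAcagaagagaaccggc
Gbp2, chr3:142620589-142620618, minus strand: acagtGAAAGTGAAActaaaagagttccta
Gbp3, chr3:142559990-142560019, minus strand: tctggGAAATAGAAACTGAAActgtgtcct
Ifih1, chr2:62646206-62646235, minus strand: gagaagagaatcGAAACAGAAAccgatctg
Ifit1, chr19:34640789-34640818, minus strand: agtgaGAAACTGAAActgagactggaaagt
Ifit3, chr19:34583392-34583421, minus strand: aagtaGAAACTGAAAcagacttaaaatcaa
Ifitm3, chr7:141010718-141010747, minus strand: ttcagGAAAAGGAAActtctgagaaaccga
Isg15, chr4:156200872-156200901, minus strand: cgtagGAAAAGGAAACCGAAACAGAAAata
Oas1a, chr5:120907521-120907550, minus strand: ctcggGAAATGGAAACTGAAAatctacttc
Oas3, chr5:120777710-120777739, minus strand: gaggaGAAAACGAAAgtgaagggaggtgac
Psme1, chr14:55578488-55578517, minus strand: gaaggGAAAGCGAAAgcacagctcgaaacc
Rsad2, chr12:26456558-26456587, plus strand: tttctGAAAATGAAAgttggaccagagcca
Stat2, chr10:128270261-128270290, minus strand: gaaagGAAACTGAAAccagggtgcgtgaag

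In 11 of the 16 genes the matches lay before the start. They began 20 bases before it at Oas1a, 59 at Gbp2, 75 at Oas3, 120 at Rsad2 and 222 at Stat2. At Ddx58, Eif2ak2, Ifih1, Ifitm3 and Psme1 they lay in the first 50 transcribed bases. Bst2, Gbp3, Ifit1, Ifit3, Ifitm3, Isg15 and Oas1a had 2 or more matches in a window, and Isg15 had 3 that overlap, 78 bases before its start.

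The composite letters (GGAA, any 2 bases, then GAAA), an ETS site next to an IRF site, were found in 6 members (20.7%), against 3.02% of all genes. Psme1 and Stat2 were also among the genes with an ISRE match, and there the composite match shares bases with the ISRE match. The other 4 are shown in the same way, with the match in capitals.
Adar, chr3:89730738-89730767, plus strand: ttttcaaGGAAACGAAAgtgaactctgggg
Ifi44, chr3:151749944-151749973, plus strand: gctcgGGAAACGAAAactgaaactctgtat
Sp100, chr1:85649933-85649962, minus strand: gatggGGAAAAGAAAaacgaaagtaattct
Trim25, chr11:88999384-88999413, minus strand: aggaaGGAATCGAAActgaacaggaggggc

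The GAS letters TTCNNNGAA were in 9 members (31.0%), against 9.02% of all genes, and can share bases with an ISRE match. Letters of PU.1, Runx and C/EBP sites were about as common as in other promoters. No letters for Gata2, Gfi1, Gfi1b, Tal1, Lyl1 or Meis1 were searched. The PU.1 letters GAGGAAGT were in 1 member (3.45%, background 3.66%), the Runx letters TGTGGT in 6 (20.7%, background 17.0%) and the C/EBP letters TTGCNNAA in 3 (10.3%, background 11.8%). Ifitm1, Oasl1, Oasl2, Tap1 and Xaf1 held none of the ISRE, composite and GAS letters in these windows.

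**Figure D3:**
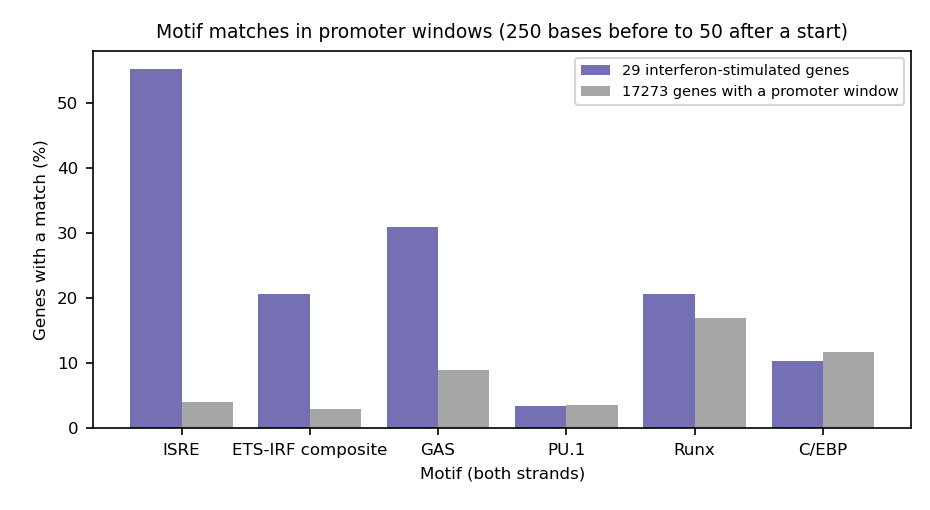
Percentage of genes with a match in a promoter window (y axis) for 6 motifs searched on both strands (x axis), for 29 interferon-stimulated genes (purple) and 17273 genes (grey). The ISRE is in 55.2% of the members and 3.98% of all genes, while the PU.1, Runx and C/EBP letters are near the background.

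Peaks lay over the promoter window of 19 of the 29 members (65.5%), against 43.9% of all genes. The number of factors over a window was also tallied, with a gene of several starts counted by its window with the most factors. Of the 29, 10 had no factor over a window, 6 had 1, 7 had 2, 4 had 3 and 2 had 4. The classes from 1 to 4 have no share over all genes beside them. Ifit2, counted with 2, had Fli1 and Spi1 over the window of a start and Cebpa and Cebpb over that of another. None had 5 or more in a window, as 9.30% of all genes did, and 0 of 29 allows a share of up to 10.3%. With peak midpoints required to lie in the window 18 members were bound (all genes 36.2%), and with each list cut to its first 50% of lines 12 (all genes 28.2%).

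Spi1 and the C/EBP factors were the most frequent. Spi1 was over a window of 11 members (37.9%, background 24.9%), Cebpb over 9 (31.0%, background 15.6%) and Cebpa over 8 (27.6%, background 14.4%). Runx1 was over 5 (17.2%, background 15.6%), Lmo2 over 4 (13.8%, background 15.7%), Fli1 over 4 (13.8%, background 21.8%) and Erg over 1 (3.45%, background 11.3%). Gata2, Gfi1, Gfi1b, Lyl1, Meis1 and Tal1 had no peak over a member's window, and their backgrounds were 2.19%, 5.49%, 3.99%, 1.78%, 1.33% and 2.05%.

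The windows with the most factors were those of Ifih1 and Trim25. Ifih1 encodes the RNA sensor MDA5 and had Cebpa, Cebpb, Runx1 and Spi1. Trim25, a ubiquitin ligase that acts on RIG-I, had Erg, Fli1, Lmo2 and Spi1. Bst2 (tetherin, which holds budding virus at the cell surface) had Cebpa, Cebpb and Lmo2. Gbp3, a guanylate-binding GTPase, had Cebpa, Cebpb and Spi1 over the windows of its starts. The 2 other members with 3 factors over a window were Isg20, a ribonuclease, with Cebpa, Cebpb and Spi1, and Samhd1, which breaks down nucleotides, with Cebpa, Cebpb and Fli1.

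Occupancy was compared between members with and without an ISRE match, with no test. Of the 16 members with a match 11 had a factor over a window (68.8%), and of the 13 without 8 had (61.5%). For all genes with a window the shares were 41.5% and 44.0%. Spi1 was over a window of 5 of the 16 (31.2%) and 6 of the 13 (46.2%), against 25.0% and 24.9% of all genes. Ddx58, Ifit3, Ifitm3, Oas1a and Stat2 had a match and no factor. For bound and unbound promoters side by side, the 250 bases before the first start are printed for Bst2 and Gbp3, each with peaks of Cebpa and Cebpb over the window, and for Ifit3, with none. Here the sequence is on the strand of the gene, and capitals mark matches to any of the 6 motifs.
Bst2, chr8:71537473-71537722, minus strand: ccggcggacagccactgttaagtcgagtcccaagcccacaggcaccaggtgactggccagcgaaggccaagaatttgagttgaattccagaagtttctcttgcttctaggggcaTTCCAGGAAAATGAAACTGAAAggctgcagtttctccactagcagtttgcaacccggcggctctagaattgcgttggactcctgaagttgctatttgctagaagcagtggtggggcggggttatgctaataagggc
Gbp3, chr3:142559794-142560043, plus strand: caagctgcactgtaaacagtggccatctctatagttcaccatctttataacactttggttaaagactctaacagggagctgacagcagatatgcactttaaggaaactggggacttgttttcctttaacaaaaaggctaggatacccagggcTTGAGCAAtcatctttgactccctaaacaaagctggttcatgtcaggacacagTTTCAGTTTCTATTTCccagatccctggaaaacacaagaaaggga
Ifit3, chr19:34583279-34583528, plus strand: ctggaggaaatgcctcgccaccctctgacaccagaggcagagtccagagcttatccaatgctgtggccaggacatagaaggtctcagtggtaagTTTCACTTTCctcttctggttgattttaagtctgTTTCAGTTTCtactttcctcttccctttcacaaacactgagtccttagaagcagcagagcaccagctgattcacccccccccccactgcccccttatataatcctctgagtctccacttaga
Bst2 held a GAS match that runs into overlapping ISRE matches. Gbp3 held a C/EBP match and overlapping ISRE matches, and Ifit3 held ISRE matches that begin 156 and 122 bases before its start.

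Around the starts of these 29 members, 126 peaks had their midpoint within 5 kb, and 58 of them lay within 1 kb. Of the 58, 15 were of Spi1, 14 of Cebpb, 10 of Cebpa, 6 of Lmo2, 6 of Runx1, 5 of Fli1, 1 of Erg and 1 of Tal1. Gfi1, Gfi1b, Lyl1 and Meis1 had 2 to 4 peaks each within 5 kb and none within 1 kb, and Gata2 had none within 5 kb. These peaks were not counted around the starts of all genes, so they have no background. The lists also differ in length, from 3217 peaks (Gata2) to 76378 (Spi1), so the order of the factors is not read as a trait of these genes.

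**Figure D4:**
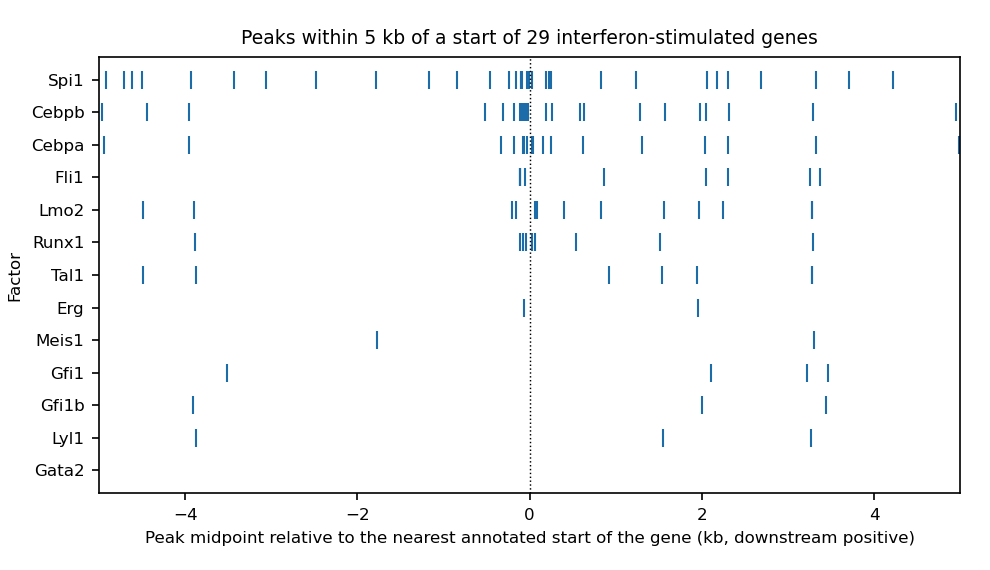
Midpoints of peaks relative to the nearest annotated start of the gene (x axis, kb, downstream positive) for 29 interferon-stimulated genes, by factor (y axis). Each tick is 1 peak at 1 gene, and 58 of the 126 ticks lie within 1 kb of a start, most of them of Spi1, Cebpb and Cebpa. No background over all genes was counted, and the lists differ in length.

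For all 38 members, with or without an annotated strand, a peak midpoint lay within 1 kb of either end of the gene at 25 (65.8%), against 53.5% of all genes. Spi1 was there at 17 (44.7%, background 37.9%), Cebpb at 12 (31.6%, background 22.8%) and Cebpa at 10 (26.3%, background 21.0%). Lmo2 followed at 9 (23.7%, background 20.9%) and Runx1 at 8 (21.1%, background 17.5%). The ETS factors Fli1 and Erg lay below the background, at 6 (15.8%, background 25.5%) and 2 (5.26%, background 13%, which is 2813 of the 21627 genes). The other factors were near the boundary of 3 members or fewer. Tal1 was there at 3 (background 4.68%), Gfi1, Gfi1b and Lyl1 at 2 each (backgrounds 8.54%, 6.88% and 3.21%), and Gata2 and Meis1 at 0 (backgrounds 2.42% and 3.18%). Only Zbp1 and Tap1 had 5 or more factors there (5.26%, background 15.8%). Zbp1, a sensor of Z-form nucleic acid that starts cell death, had 9 factors near a boundary, and a region with these 9 lay across its upper end at chr2:173218659-173219203. Tap1, the peptide transporter of antigen presentation, had 7.

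Sensors and signalling genes had a median of 10.5 factors over 8 genes, with a range from 7 to 12. They had peaks for 79 of 104 combinations (76.0%, all genes 57.6%, genes with a peak of any factor 65.5%). Zbp1 had 60 peaks of 12 factors, with 15 of Spi1, 7 of Lmo2 and 6 of Fli1, and lacked Gata2. Usp18, which removes Isg15 from proteins and damps interferon signalling, had 57 peaks of 12 factors, among them 12 of Spi1 and 10 of Cebpb, and lacked Gfi1b. The RNA sensor Ifih1 had 11 factors with 42 peaks, and Trim25, the ligase that acts on RIG-I, 11 with 32. Stat2 had 10 factors and 32 peaks. Ddx58 (RIG-I) and its relative Dhx58 (LGP2) had 8 factors each, with 22 and 38 peaks. Isg15, a ubiquitin-like modifier and the lowest of the group, had 12 peaks of 7 factors, 4 of them of Spi1 and 3 of Runx1, and 1 each of Cebpa, Cebpb, Erg, Fli1 and Lmo2.

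Effectors that act on RNA and translation had a median of 9.5 factors over 12 genes, with a range from 3 to 11 and 99 of 156 combinations (63.5%). All genes gave 57.6%, and genes with a peak of any factor 65.5%. Ifit1, which binds foreign RNA caps, had 27 peaks of 11 factors and lacked Erg and Gata2. Adar, an RNA-editing deaminase, had 26 peaks of 11 factors and was among the few members with Gata2, at 2 peaks. Oas2 and Oas3, synthetases of the activator of RNase L, had 11 factors each and share most of a locus. Their relative Oas1a had 4 peaks, 1 each of Cebpa, Cebpb, Lmo2 and Spi1, all in a single region 47.9 kb outside the gene. Isg20 had 9 peaks, 6 of Spi1, 2 of Cebpb and 1 of Cebpa, and Eif2ak2 (PKR), a kinase that stops translation, had 14 peaks of 5 factors. Samhd1 and Ifit3 had 10 factors, Oasl2 had 9, Oasl1 had 8 and Ifit2 had 6.

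Genes that act on membranes, entry and virus assembly had a median of 10.5 factors over 8 genes, with a range from 7 to 12. They had peaks for 78 of 104 combinations (75.0%, all genes 57.6%, genes with a peak of any factor 65.5%). None of the 8 had a Gata2 peak (background 23.2%). With so few genes, several of them neighbours, this absence cannot be told apart from the background. Ifitm3, which blocks fusion of entering virus, had 79 peaks, the most of all members, with 13 of Spi1, 11 of Cebpb, 10 of Cebpa, 7 each of Fli1 and Lmo2 and 6 of Tal1. Its neighbour Ifitm1 had 76, and the joined locus had 93. Rsad2 (viperin) had 77 peaks of 12 factors, with 11 of Cebpa, 10 each of Cebpb and Spi1, 9 of Lmo2 and 8 of Tal1. Bst2 also had 12 factors, with 43 peaks. At the low end Mx2 had 11 peaks and Gbp2 14, each of 7 factors, while Gbp3 had 22 peaks of 7 factors and Mx1 14 of 9.

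The antigen processing genes and the chemokine had 10 to 12 factors. Tap1, in the major histocompatibility complex, had 70 peaks of 12 factors, with 16 of Spi1 and 9 of Cebpb. Cxcl10, a chemokine for T cells, had 55 peaks of 11 factors, with 12 of Spi1, 10 of Lmo2 and 9 each of Cebpa and Cebpb, and none of Gfi1 or Gfi1b. Psme1, a proteasome activator subunit, had 34 peaks of 10 factors, and its locus overlaps that of Irf9.

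The remaining 7 members held both extremes. Sp100, of the nuclear PML bodies, had 65 peaks of 12 factors and Rtp4, a chaperone of receptors, 50 of 12. Ifi35 had 12 factors, and the neighbouring ADP-ribosyltransferase family members Parp9 and Parp14 had 11 and 8. Xaf1, a gene linked to cell death, had 3 peaks, all of Spi1, and Ifi44 had 2, 1 of Cebpa and 1 of Meis1. Xaf1, Ifi44 and Isg20 were the members with 3 or fewer factors (7.89%, background 23.4%). Of the 5057 genes in that background, 2593 had no factor at all, a class that holds no member.

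**Figure D5:**
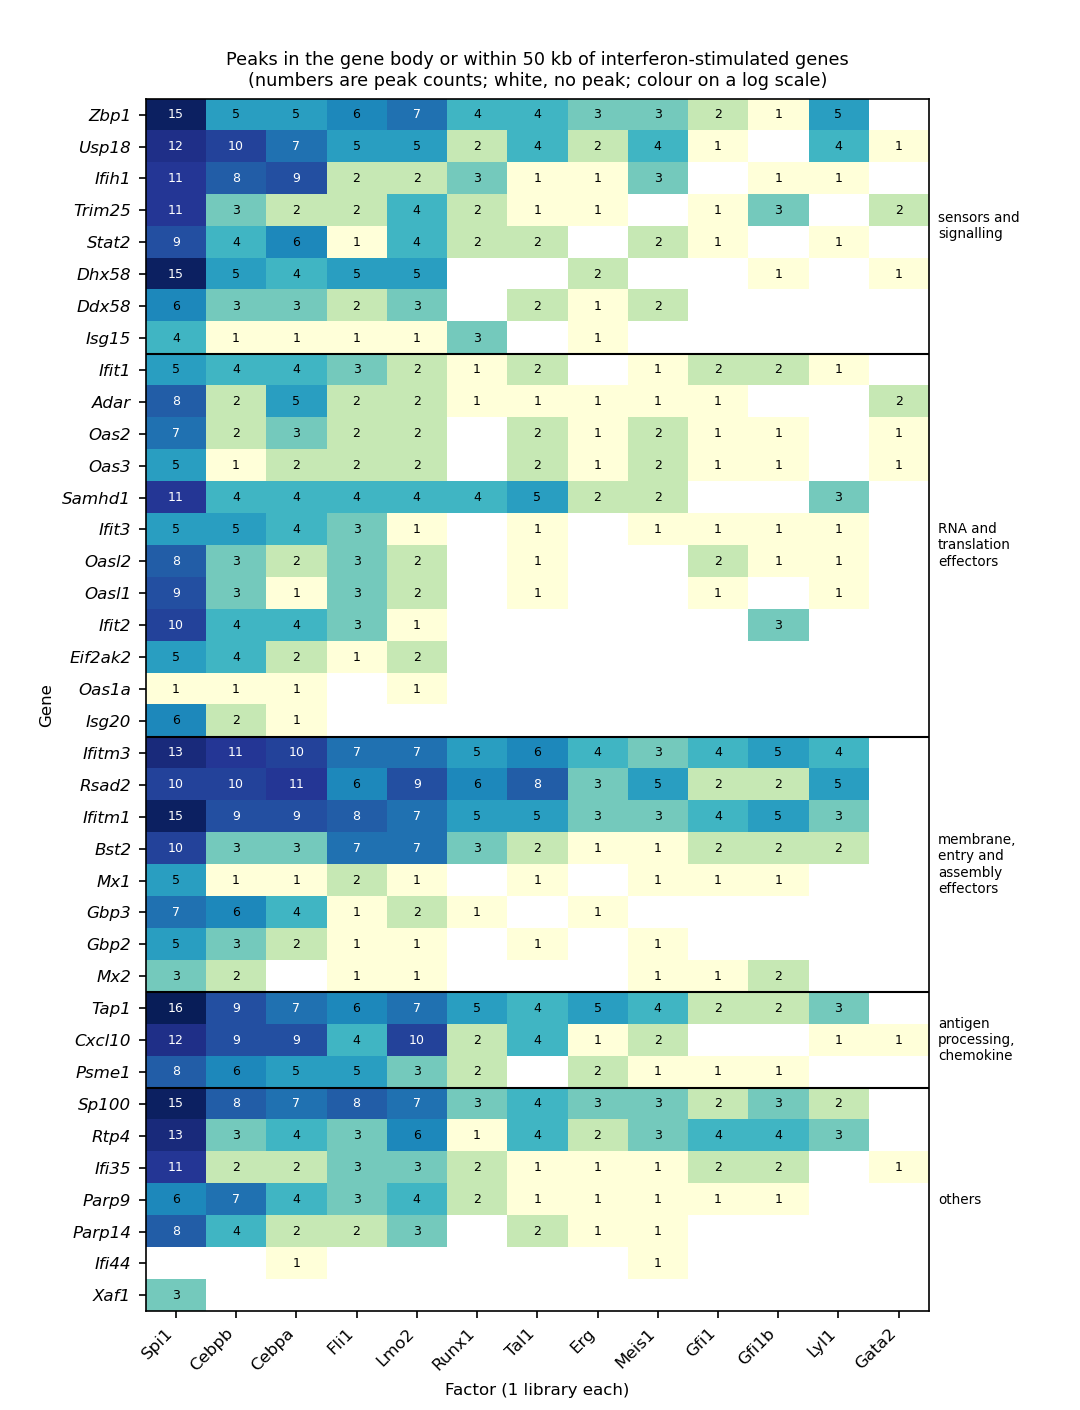
Number of peaks of each factor (columns, ordered by the share of all genes bound) in the locus of each of the 38 interferon-stimulated genes (rows, by role and then by number of factors). Colour is on a log scale and white is no peak. Ifitm3, Rsad2, Ifitm1 and Tap1 have 70 to 79 peaks each, and Xaf1 and Ifi44 have 3 and 2.

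Merging touching peaks of all lists gave 441 regions in the 30 loci, with 1103 peaks. Their makeup was close to that of regions at all protein-coding genes: 51.7% held 1 factor (exact 95% interval 46.9 to 56.5), against 55.0%, and 34.5% held Spi1 alone, against 36.6%. Regions with 10 or more factors numbered 12 (2.72%, 1.41 to 4.70), against 2.30%. At least 1 such region lay in the locus of 9 members (23.7%, background 17.4%) and in 7 of the 30 joined loci.

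A region with 10 or more of 13 factors must hold most of them, so the makeup of the 12 is a description beside that of all 2831 such regions. All 12 held Cebpa, Cebpb, Fli1, Lmo2, Lyl1 and Tal1, which were in 95.2% to 99.6% of all such regions. Meis1 was also in all 12, against 64.0%. The 12 come from only 7 joined loci, so they are not independent, and this difference was not tested. Spi1 and Erg were in 11 (93.3% and 84.9% of all), Runx1 in 10 (90.4%), Gfi1 in 8 (84.2%) and Gfi1b in 7 (67.0%). None held Gata2, which was in 7.35% of all, and 0 of 12 allows a share of up to 25.0%. When each list was cut to its first 50% of lines 4 such regions were left, and with 10 kb on either side 2.

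Most of the 12 were nearer to another gene than to a member: the nearest gene was a member for 4 and another gene for 8. The Ifitm locus held 3, between Ifitm1 and Ifitm3. The one with 12 factors was chr7:140990572-140991087, 18.8 kb from Ifitm3, and those with 11 were chr7:140981676-140982207 and chr7:140997733-140998226. At Rtp4 a region with 12 factors, chr16:23597899-23598427, lay inside the gene as annotated (chr16:23520219-23614222) and was the only one of the 12 inside a member. Its exon or intron position was not analysed here.

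At Rsad2 a region with 12 factors, chr12:26401639-26402149, lay inside the neighbour Rnf144a, 54.6 kb downstream of the Rsad2 start, and one with 10 at chr12:26418269-26418762. Rsad2 itself held a region with 9 factors, chr12:26452928-26453436, which lacked Erg, Gata2, Gfi1b and Spi1. At Sp100 the regions chr1:85732546-85733097 (12 factors) and chr1:85751406-85751972 (10) were both nearest to A630001G21Rik. At Usp18 the region with 11 factors, chr6:121214773-121215450, lay inside Tuba8. At Tap1 one region with 10 factors, chr17:34170144-34170633, lay 17.2 kb upstream of the start and another, chr17:34210499-34211062, inside Tap2. The Ifit locus held chr19:34633421-34633926 with 10 factors, 7.22 kb upstream of Ifit1 and within Ifit1bl1 and Ifit1bl2.

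The most shared region of a member mostly lay away from its start, as it did over all genes. Among the 29 members with an annotated start, it lay within 5 kb of the start for 2, Isg20 (3 factors, 0.095 kb) and Oas3 (8 factors, 2.02 kb), and the median distance was 34.9 kb. That is 6.90% of the 29, against 16.2% of the 15166 genes with a start and a region in the locus, whose median distance was 30.1 kb. Of the 33 distinct most shared regions 5 lay inside a member, at Samhd1, Gbp2, Isg20, Oas3 and Rtp4, and 8 had a member as the nearest gene. At Gbp2 the region chr3:142630250-142630798 held 7 factors 9.86 kb downstream of the start, and at Samhd1 chr2:157099428-157099937 held 8.

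The upstream genes of the pathway, a list of 24 that contains no member, had a median of 11 factors. They had peaks for 247 of 312 combinations (79.2%), against 57.6% of all genes and 65.5% of genes with a peak of any factor. The difference from the members was not tested. The receptor subunits Ifnar1, Ifnar2, Ifngr1 and Ifngr2 had 12 factors each, with 99, 92, 50 and 80 peaks, and the loci of Ifnar1, Ifnar2 and Ifngr2 overlap in part. Of the kinases Jak1 had 13 factors and 66 peaks, Tyk2 12 and 48, and Jak2 7 and 25.

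Of the transcription factors of the pathway, Irf2, which can repress interferon-stimulated genes, had 13 factors, 167 peaks and 5 regions with 10 or more factors. Irf8 had 12 factors and 103 peaks, and Irf1 12 and 72. Irf9 had 10 factors and 42 peaks, beside the 10 and 32 of its partner Stat2. Irf3 had 11 factors, and Irf5 and Irf7 had 8 each. Among the ligands, Ifnb1 had 10 factors, Ifna4 13, and Ifng 1, a single Meis1 peak. The adaptors and sensors Mavs, Tmem173 (named Sting1 in the table), Mb21d1 (named Cgas) and Tbk1 had 8, 11, 10 and 12 factors, and the inhibitors Socs1 and Ptpn6 had 10 and 11. Gata2 was found at 7 of the 24 (background 23.2%) and Runx1 at 22 (background 56.9%).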

How the data were processed

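ChIP-seq peak lists of 13 factors were analysed. The builds mm10 and GRCm38 and the tools Bowtie2, bedtools and MACS2 are named, without roles, per the submitters' processing notes. Not given in the sources used here were tool versions, peak threshold and control. Each list deposited by the authors holds positions in base pairs, with no count or score, so the depth and the precision it gives are unknown. Per the labels' protocols cells were fixed for 10 min in 0.4% or 1% formaldehyde.

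Of the lists, 3 lines outside the 19 autosomes and X were dropped. Peaks were assigned to loci by an overlap of 1 bp or more, and touching peaks were merged. Background values are over all protein-coding genes of the RefSeq table. The weighted value uses 10 classes of locus length. Promoter sequences and strands came from the RefSeq promoter table of GRCm38.p6. Motif matches are descriptions of letters, not sites. Intervals are exact (Clopper-Pearson) and, like the limits for a count of 0 (3 counts), cover counting error only. Genes described in each role group are the 2 with the most and the 2 with the fewest factors (ties by peaks, then alphabet), and others were named after their values were seen. Promoter windows were to be printed for the 4 members with the most factors over them and for 2 with none but an ISRE match. Of these Ifih1, Trim25 and Ddx58 are shown by 30 bases, since no match lay whole before their start. A gene of the pathway list, counted in its totals, is not reported here by itself. Members and lists were chosen with earlier results of these data known. The lists are not in genome order, and what orders their lines is not stated. The functions were tested on simulated peaks. Python 3.11.15, pandas 2.3.3, numpy 2.4.6 and scipy 1.17.1 were used.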

Additional observations from a re-analysis of the deposited data

How the results depend on the processing

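The 70.2% of combinations with a peak was 44.5% with 10 kb and 81.8% with 100 kb on either side, 53.2% with each list cut to its first 50% of lines, 74.3% without the Gata2 list and 36.8% with peaks given only to the nearest gene. All genes gave 38.5%, 68.5%, 42.4%, 60.5% and 34.5%, lower in each case. Without the Spi1 list the share was 68.0%, against 55.4%. The median of 11 factors per joined locus was 6 with 10 kb, and it was also 11 with Oas1a joined to Oas2 and Oas3 (29 loci), an alternative chosen after seeing the data. The 12 regions with 10 or more factors were 2 with 10 kb and 4 with the lists so cut. The 19 members with a peak over a promoter window were 12 with the lists so cut, against 28.2% of all genes. The 16 members with an ISRE match were 9 with the stricter letters. Members with a peak near a boundary numbered 17 with the lists so cut (all genes 36.9%), 23 within 0.5 kb (45.6%) and 30 within 2 kb (62.0%). Of 52 per-factor shares with 10 kb, 100 kb, the lists so cut or the nearest gene, 12 stayed within the exact 95% interval of the main share of the 38 members, which treats members as independent, and 40 did not. The cause of these moves was not tested beyond what each setting changes. No paired analysis was possible because each factor has 1 library and no test was made. Depth is unknown, which limits every comparison between factors.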
